A study of Mus musculus with 18 samples.

Results

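Transcripts of 10 EGF family genes were measured by RNA-seq in mouse embryonic fibroblasts (MEFs), namely the ligand genes Areg, Ereg, Hbegf, Tgfa, Btc, Epgn and Nrg1 and the receptor genes Egfr, Erbb2 and Erbb3. The 10 genes were taken as a named list, by symbol, from the 55401 gene identifiers of one count table, and all 10 were found. The table held 18 libraries in 6 groups of 3. The S6K1 series had S6K1 WT MEFs with empty vector (EV), S6K1 WT MEFs with RAS and S6K1 KO MEFs with RAS. The S6K1/S6K2 series had S6K1/S6K2 WT MEFs with EV, S6K1/S6K2 WT MEFs with RAS and S6K1/S6K2 DKO MEFs with RAS. EV is a retroviral vector without insert, and RAS is a retrovirus that makes constitutively active HRAS carrying a glycine-to-valine change, which drives primary fibroblasts into senescence. S6K1 and S6K2 are the kinases that act below mTORC1 on ribosomal protein S6. According to the study's methods the cells came from mid-gestation embryos after removal of the head and viscera and were selected for the vector with puromycin. S6K1 WT and KO embryos shared mothers, whereas DKO embryos came from crosses of S6K1+/-;S6K2-/- parents and their WT controls from other mothers, so maternal and litter background cannot be told apart from loss of both kinases. KO and DKO cells were analysed here with RAS alone, so the effect of kinase loss is known here only under RAS.

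The EGF family signals through the ErbB receptors. Ligands are made as membrane-anchored precursors that proteases such as ADAM17 release from the cell surface, and they then bind the EGF receptor (Egfr), ErbB3 or ErbB4, which pair with each other or with ErbB2, a receptor without a ligand of its own. The receptors recruit adaptors that load RAS with GTP, and the RAS-ERK pathway in turn is known to induce several of the ligand genes, so the family is a well-known autocrine loop of RAS-transformed cells and of the secretome of senescent cells.

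The ligand genes Areg, Hbegf and Btc rose with RAS in both series, while the receptor genes Egfr and Erbb2 moved less than these. Areg rose 52.6-fold in the S6K1 series and 157-fold in the S6K1/S6K2 series, Hbegf 4.17-fold and 4.71-fold, and Btc 3.79-fold and 2.22-fold. Without a replicate block, Ereg and Nrg1 passed the test in the S6K1/S6K2 series alone and Tgfa in the S6K1 series alone. Nrg1 stood at -0.33 on the log2 scale in the S6K1 series, and Epgn was not tested. Egfr and Erbb2 did not pass the test with RAS in either series without a replicate block, and both passed as lower in the S6K1 series with one (-0.73 and -0.37 on the log2 scale, edgeR adjusted p = 0.00810 and 0.0455). Erbb3 was present at 2 to 17 counts per library, too few to call. Its summed counts were 5.86-fold higher with RAS in the S6K1/S6K2 series. None of the 8 members tested with loss of S6K1, and none of the 9 tested with loss of both kinases, passed the threshold. Rps6kb1, the gene for S6K1, did not pass with loss of S6K1 either (-1.17 on the log2 scale, edgeR adjusted p = 0.234). That test could thus miss changes of this size, although Rps6kb1 passed with a replicate block (edgeR adjusted p = 0.000101).

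On mouse chromosome 5, 4 of the ligand genes (Epgn, Ereg, Areg and Btc) lie within 375 kb (chr5:91027517-91402994, GRCm38.p6), with no other protein-coding RefSeq gene between them. Epgn is at chr5:91027517-91035212, Ereg at chr5:91074617-91093649, Areg at chr5:91139599-91148432 and Btc at chr5:91357261-91402994, the last on the minus strand. RefSeq lists between them only the lncRNA genes Gm19610 and Gm19619 and the snRNA gene Gm23092, and Gm19610 overlaps the low-coordinate end of Ereg. Of the other members, Tgfa lies at chr6:86195038-86275744, Nrg1 at chr8:31807452-32891609, Egfr at chr11:16752203-16913907, Erbb2 at chr11:98412484-98437716 and Erbb3 at chr10:128567523-128589635. The promoters of the neighbours on chromosome 5 are shown because the neighbours differed in level and, where tested, in change with RAS. Epgn held 5 counts or fewer in any library and was not tested, Btc rose several-fold and Areg had the largest rise of the family. The part of the promoter sequences in these values was not tested. The 250 bases before the start used by RefSeq's promoter entries (GRCm38.p6) were taken, in which 6 of the 10 members matched an entry (Areg, Tgfa, Btc, Epgn, Egfr and Erbb2) and 4 did not (Ereg, Hbegf, Nrg1 and Erbb3). These windows ended at the gene's listed start in 5 of the 6, whereas that of Tgfa (chr6:86194972-86195221) reached into the gene as listed. Capitals mark a full cyclic AMP response element, a known binding sequence of CREB and ATF family factors.
Areg, chr5:91139349-91139598, plus strand: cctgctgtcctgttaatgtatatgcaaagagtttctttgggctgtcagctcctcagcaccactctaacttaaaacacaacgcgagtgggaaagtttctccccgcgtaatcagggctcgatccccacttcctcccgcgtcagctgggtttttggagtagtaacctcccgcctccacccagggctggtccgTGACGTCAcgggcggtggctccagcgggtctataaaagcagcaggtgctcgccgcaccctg
Btc, chr5:91402995-91403244, minus strand: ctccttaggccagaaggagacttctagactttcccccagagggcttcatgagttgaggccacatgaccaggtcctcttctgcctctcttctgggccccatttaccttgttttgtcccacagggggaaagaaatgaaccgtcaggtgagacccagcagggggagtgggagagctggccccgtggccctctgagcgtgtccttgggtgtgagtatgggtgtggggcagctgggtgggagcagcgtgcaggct
Epgn, chr5:91027267-91027516, plus strand: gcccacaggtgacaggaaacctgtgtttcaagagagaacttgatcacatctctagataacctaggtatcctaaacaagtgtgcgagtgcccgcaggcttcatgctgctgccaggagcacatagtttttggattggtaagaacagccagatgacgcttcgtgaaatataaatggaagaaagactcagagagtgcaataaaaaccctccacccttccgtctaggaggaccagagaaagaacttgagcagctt
The element TGACGTCA, which reads the same on both strands, began at position -61 of Areg, counted back from the start of its entry, and was not found in the windows of Btc, Epgn, Tgfa, Egfr or Erbb2. Of 32851 promoters of the same length, 1.55% held it. The AP-1 sequence TGACTCA, searched on both strands and with no match shared with the first element, was found in 4.46% of those promoters and in none of the 6 member windows.

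The 18 libraries held between 8319445 and 14402442 counts, and 3 counts, the floor used here for a transcript called undetectable, were worth 0.208 to 0.361 CPM (counts scaled to library size). CPM values below were scaled with TMM within each series. The labels were checked on the engineered genes. Rps6kb1 (S6K1) stood at 61.6 to 74.6 CPM in WT RAS libraries and 23.6 to 37.0 CPM in KO RAS libraries of the S6K1 series, and at 75.5 to 83.7 CPM and 34.5 to 39.7 CPM in WT RAS and DKO RAS libraries of the other series. Rps6kb2 (S6K2) stood at 24.1 to 28.9 CPM in WT RAS and 2.68 to 3.04 CPM in DKO RAS libraries. Hras rose with RAS by 1.90-fold and 1.68-fold in the S6K1 and S6K1/S6K2 series. Fibroblast markers were high in every library, with a summed level of 10 genes from 13379 to 48429 CPM, and 4 of them (Col1a1, Col1a2, Col3a1 and Pdgfrb) were lower with RAS in both series, whereas Lum rose by 1.07 on the log2 scale in the S6K1 series (edgeR adjusted p = 0.0448). The summed level of the 12 macrophage markers also ranged widely, from 71.4 to 3755 CPM, and fewer cells of a type cannot be told apart from less RNA per cell in such bulk samples.

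**Figure D1:**
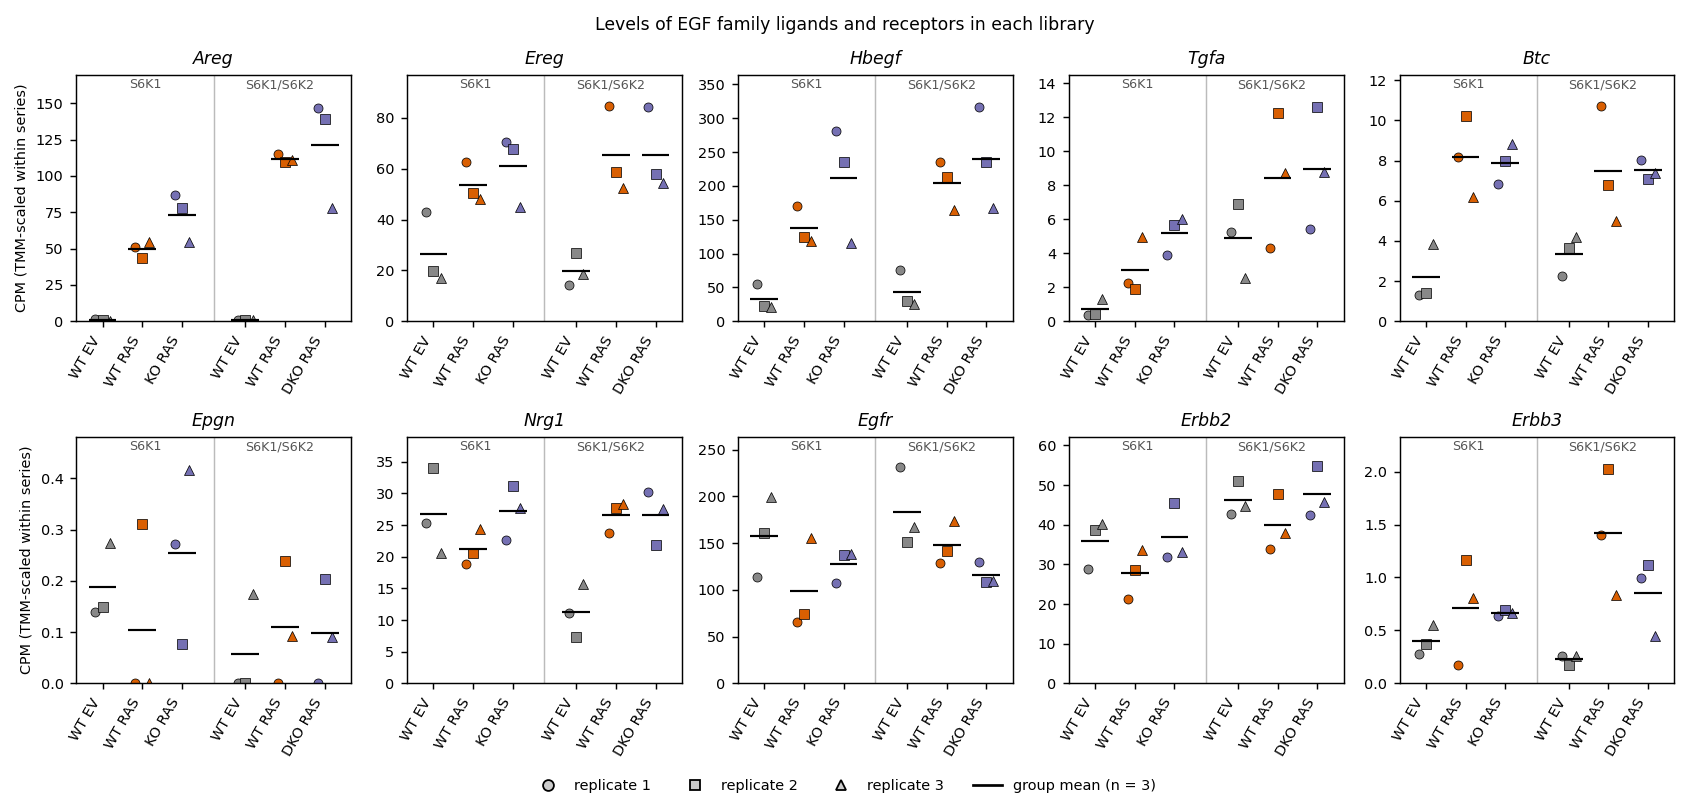
Level of each of the 10 genes (CPM, linear axis from 0, own scale per gene) in each of the 18 libraries, by group, with marker shape for the replicate number and a bar for the group mean (n = 3). Areg, Hbegf and Ereg with RAS sit above every EV library of their series, Egfr and Erbb2 overlap, and Epgn stays at 5 counts or fewer.

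To ask which ligand genes respond to RAS, WT RAS libraries were compared with WT EV libraries in each series with edgeR's quasi-likelihood test, and adjusted p-values (Benjamini-Hochberg) were taken over all genes tested. Of 6 ligand genes tested in the S6K1 series, 4 rose (Areg, Hbegf, Tgfa and Btc) and 0 fell, where 7.15% of all genes tested rose and 6.09% fell. Of 6 ligand genes tested in the S6K1/S6K2 series, 5 rose (Areg, Ereg, Hbegf, Btc and Nrg1) and 0 fell, where 13.5% of all genes rose and 12.7% fell. The median log2 fold change of the tested ligand genes was 1.99 and 1.47 in the S6K1 and S6K1/S6K2 series, beside medians over all genes of 0.00 and -0.02. Areg in both series and Tgfa in the S6K1 series reached the filter on low counts through their RAS libraries, so these counts and medians are no support of their own. With no filter, Areg (edgeR adjusted p = 2.53e-10 and 1.35e-20 in the S6K1 and S6K1/S6K2 series) and Tgfa (adjusted p = 0.00426 in the S6K1 series) passed as well. WT EV and WT RAS libraries of one number deviated together from their group means in both series, so the replicate number was also used as a block. With the block the S6K1 series gave 7 members, 5 ligand genes that rose and Egfr and Erbb2 that fell, where 18.1% of all genes rose and 18.1% fell. The block over the 6 WT libraries of the S6K1/S6K2 series gave 4 ligand genes that rose, where 14% of all genes rose, and Btc was the one lost.

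Areg encodes amphiregulin, a low-affinity ligand of the EGF receptor. In the S6K1 series its level was 1.81, 0.522 and 0.366 CPM in WT EV replicates 1 to 3 and 51.0, 43.8 and 54.7 CPM in WT RAS replicates 1 to 3, equal to 26, 7 and 4 counts against 597, 562 and 681. The S6K1/S6K2 series gave 0.699, 0.619 and 0.787 CPM with EV and 115, 109.6 and 111 CPM with RAS. Every RAS library thus stood far above every EV library, and EV replicate 1 of the S6K1 series was the one EV library that stood apart. The log2 fold change was 5.72 (SE 0.43, edgeR adjusted p = 0.000127) and 7.29 (SE 0.31, edgeR adjusted p = 6.64e-06) in the S6K1 and S6K1/S6K2 series. Without EV replicate 1 the S6K1 value was 6.74. The difference between the series was 1.57 (95% interval 0.30 to 2.84) on the log2 scale and did not pass the threshold (edgeR adjusted p = 0.320).

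Hbegf encodes heparin-binding EGF, a ligand of the EGF receptor and ErbB4. It stood at 54.9, 22.5 and 21.4 CPM in WT EV and 170, 125 and 118 CPM in WT RAS replicates 1 to 3 of the S6K1 series. The corresponding values in the S6K1/S6K2 series were 75.7, 29.4 and 25.0 CPM with EV and 236, 213 and 164 CPM with RAS. In both series the groups did not overlap, and replicate 1 was highest in both EV and RAS groups. The log2 fold changes were 2.06 (SE 0.43, edgeR adjusted p = 0.0124) and 2.24 (SE 0.41, edgeR adjusted p = 0.00417) in the S6K1 and S6K1/S6K2 series. Without EV replicate 1 the second was 2.91, and without EV replicate 2 the first no longer passed (adjusted p = 0.0551).

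Ereg encodes epiregulin, a ligand of the EGF receptor and ErbB4 and the neighbour of Areg on chromosome 5. In the S6K1 series it was at 42.8, 19.8 and 17.1 CPM with EV and 62.8, 50.3 and 48.2 CPM with RAS. The S6K1/S6K2 series had 14.3, 26.9 and 18.4 CPM with EV and 84.7, 58.6 and 52.5 CPM with RAS. RAS libraries lay above EV libraries in both series, with a narrow gap in the S6K1 series, where EV replicate 1 was near the RAS libraries. The log2 fold change of 1.71 in the S6K1/S6K2 series passed the test (SE 0.27, edgeR adjusted p = 0.00221). That of 1.01 in the S6K1 series (SE 0.33, edgeR adjusted p = 0.0796) did not. It passed in 6 of 17 alternatives, among them the replicate block (1.09, adjusted p = 0.00171), DESeq2 (adjusted p = 0.0245) and leaving out EV replicate 1 (1.53, adjusted p = 0.00586), and the adjusted p ran from 0.00171 to 0.233.

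Tgfa and Btc, which encode the EGF receptor ligands transforming growth factor alpha and betacellulin, were at lower levels. Tgfa was at 0.348, 0.447 and 1.283 CPM with EV and 2.22, 1.87 and 4.98 CPM with RAS in the S6K1 series, a log2 fold change of 2.16 (SE 0.55, edgeR adjusted p = 0.0311). In the S6K1/S6K2 series EV libraries already held 5.24, 6.90 and 2.53 CPM and RAS libraries 4.32, 12.3 and 8.71 CPM, which overlapped and differed by 0.78 on the log2 scale (95% interval -0.27 to 1.84, edgeR adjusted p = 0.244). The difference of the Tgfa response between the series was -1.38 (95% interval -2.998 to 0.24, edgeR adjusted p = 0.458), so the unequal calls do not show unequal responses. The S6K1 call was lost in 5 of 17 alternatives, among them leaving out EV replicate 1 (1.82, adjusted p = 0.0925), EV replicate 2 (1.93, adjusted p = 0.113) or RAS replicate 3 (1.60, adjusted p = 0.0751), over an adjusted p from 0.00174 to 0.113, and without EV replicate 3 the change was 2.90.

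Btc stood at 1.32, 1.42 and 3.85 CPM with EV and 8.20, 10.2 and 6.19 CPM with RAS in the S6K1 series, and at 2.27, 3.62 and 4.20 CPM with EV and 10.7, 6.79 and 5.004 CPM with RAS in the S6K1/S6K2 series. Every RAS library lay above every EV library of its series. The log2 fold changes were 1.92 (SE 0.40, edgeR adjusted p = 0.0126) and 1.15 (SE 0.33, edgeR adjusted p = 0.0307). The first was 2.57 without EV replicate 3 and did not pass without EV replicate 2 or RAS replicate 2 (adjusted p = 0.0536 and 0.0532). The second was lost in 7 of 17 alternatives, over an adjusted p from 0.00794 to 0.101, including the replicate block over the 6 WT libraries (1.13, adjusted p = 0.0895) and over 9 libraries (adjusted p = 0.0503). Without RAS replicate 1 it was 0.80 (adjusted p = 0.101). Epgn, which encodes epigen, had 0 to 5 counts in each of the 18 libraries, 28 in all, and was not tested.

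Nrg1 encodes neuregulin 1, a ligand of ErbB3 and ErbB4 rather than of the EGF receptor, and it was the member with the lowest p for a difference of the RAS response between the series. In the S6K1 series it was at 25.3, 34.1 and 20.6 CPM with EV and 18.8, 20.6 and 24.4 CPM with RAS, overlapping groups with a log2 fold change of -0.33 (95% interval -0.79 to 0.14, edgeR adjusted p = 0.359). Libraries of the S6K1/S6K2 series held 11.1, 7.25 and 15.6 CPM with EV and 23.8, 27.7 and 28.3 CPM with RAS, and it rose by 1.23 (SE 0.25, edgeR adjusted p = 0.00736). WT RAS libraries of both series overlapped in level, from 18.8 to 28.3 CPM, whereas WT EV libraries were at 20.6 to 34.1 CPM in one series and 7.25 to 15.6 CPM in the other. The difference of the RAS response was 1.55 (95% interval 0.83 to 2.27). It did not pass the threshold in edgeR without a block (adjusted p = 0.121), where 0 of the 9 members tested and 0% of all genes passed, with 2 members (Areg and Nrg1) at an unadjusted p under 0.05. It passed in 4 of 24 alternatives, with DESeq2 (adjusted p = 0.00588), no filter, the block over 18 libraries (1.58, adjusted p = 0.0493) and without EV replicate 3 of the S6K1/S6K2 series (1.86, adjusted p = 0.0117), and the adjusted p ran up to 0.365. Series and batch cannot be told apart here.

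Some epithelial markers rose together with the ligand genes. Krt8, Krt18, Epcam and Cldn4 passed in the S6K1 series (4 of 5 tested of 11 listed), where 7.15% of all genes rose. These with Krt19 passed in the S6K1/S6K2 series (5 of 6 tested), where 13.5% rose. Krt8 and Epcam were at or under the floor in every WT EV library of both series. They reached the filter through RAS libraries, so these counts are no support of their own. The summed level of all 11 was 10.4 to 18.4 CPM in WT EV and 146 to 175 CPM in WT RAS libraries of the S6K1 series, and 10.7 to 11.8 CPM and 145 to 176 CPM in the S6K1/S6K2 series. Krt5, Grhl2 and Esrp1 of the same list were at or under the floor in all groups. Trp63 reached above the floor with EV in the S6K1 series and stayed at or under it in WT RAS and KO RAS libraries. Krt14 reached above it with EV in the S6K1/S6K2 series and was at 0 counts in WT RAS and DKO RAS libraries. The summed level of 8 endothelial genes was 13.5 to 19.5 CPM in WT EV and 21.4 to 27.9 CPM in WT RAS libraries of the S6K1 series, and 16.4 to 26.3 CPM and 25.8 to 29.9 CPM, which overlapped, in the S6K1/S6K2 series. Of these genes Cdh5 passed as higher in both series, Egfl7 as higher in the S6K1 series and Tek as lower in the S6K1/S6K2 series. Of 8 muscle genes, Myod1, Myog, Myf5, Ckm and Myh3 were at or under the floor in all groups, but Acta1, the actin of skeletal muscle, rose by 1.57 (edgeR adjusted p = 0.0213) and 3.49 (adjusted p = 0.00935) on the log2 scale. The summed muscle level was 55.7 to 85.7 CPM with EV and 150.1 to 167 CPM with RAS in the S6K1 series, and 6.55 to 40.4 CPM and 76.9 to 230.2 CPM in the S6K1/S6K2 series. That of 8 Schwann and neural crest genes was 4.87 to 24 CPM over all 18 libraries, and Mbp passed as higher in the S6K1/S6K2 series. Of the 12 macrophage markers 0 passed with RAS in either series in edgeR and DESeq2, and 0 had an unadjusted p under 0.05 in edgeR. With the replicate block 2 rose and 2 fell in the S6K1 series, where 18.1% of all genes rose and 18.1% fell. In the S6K1/S6K2 series 4 fell with the block, where 1903 of 13881 genes fell. The part of these genes in the ligand values was not tested.

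**Figure D2:**
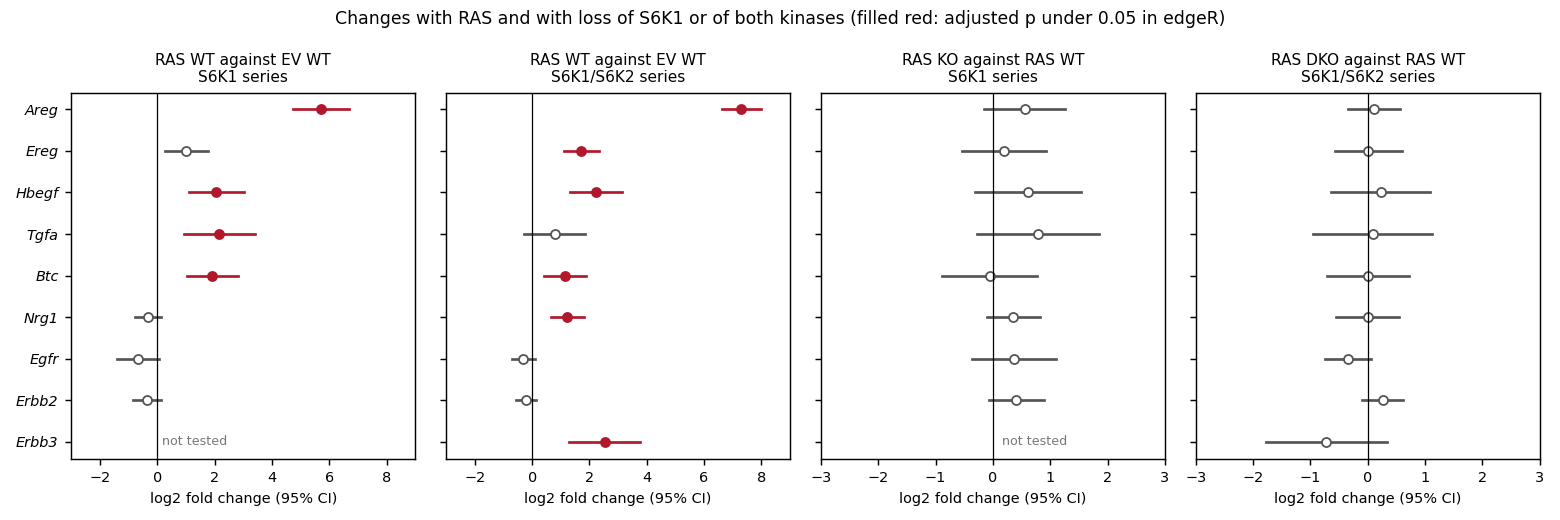
Log2 fold change of the 9 members with a test, with the unadjusted 95% confidence interval, for RAS WT against EV WT (left panels, axis from -3 to 9) and for kinase loss under RAS (right panels, axis from -3 to 3). Filled red points passed the edgeR test, which happened for 4 and 6 members with RAS (Erbb3, too low to call, is one of the 6) and for 0 members with loss of S6K1 or of both kinases.

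Of the 2 receptor genes tested in the S6K1 series, 0 passed in edgeR without a block, 0 had an unadjusted p under 0.05 and DESeq2 called 0. Egfr, the receptor of most of these ligands, was at 114, 161 and 199.9 CPM with EV and 65.6, 74.7 and 156 CPM with RAS in the S6K1 series. The S6K1/S6K2 libraries held 232, 151 and 167 CPM with EV and 129, 141 and 174 CPM with RAS. The groups overlapped in both series, although in the S6K1 series each of the 3 WT numbers was lower with RAS than with EV. The log2 fold change was -0.68 (95% interval -1.42 to 0.06, edgeR adjusted p = 0.225) in the S6K1 series, and with the replicate block it was -0.73 and passed (adjusted p = 0.00810). Its adjusted p ran from 0.00810 to 0.506 over 17 alternatives, and without RAS replicate 3, the highest RAS library, the change was -1.17 (adjusted p = 0.0140). In the S6K1/S6K2 series it was -0.31 (95% interval -0.71 to 0.09, edgeR adjusted p = 0.228).

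Erbb2, the partner receptor without a ligand, was at 28.9, 38.7 and 40.1 CPM with EV and 21.2, 28.6 and 33.6 CPM with RAS in the S6K1 series, and at 42.6, 51.0 and 44.8 CPM with EV and 33.9, 47.9 and 37.9 CPM with RAS in the S6K1/S6K2 series. Each WT number was lower with RAS in both series, by small amounts within overlapping groups. The log2 fold changes were -0.37 (95% interval -0.85 to 0.11, edgeR adjusted p = 0.317) and -0.21 (95% interval -0.56 to 0.14, edgeR adjusted p = 0.345), and the first passed with the replicate block (-0.37, adjusted p = 0.0455, range over 17 alternatives 0.0236 to 0.662).

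Erbb3, the neuregulin receptor with an impaired kinase, had 2 to 15 counts per library in the S6K1 series, where it fell below the filter on low counts and was not tested. In the S6K1/S6K2 series it had 3, 2 and 3 counts in the EV libraries and 13, 17 and 9 counts in the WT RAS libraries. With EV it was never above the floor of 3 counts and with RAS always above it, and Erbb3 reached the filter through the RAS libraries alone. The ratio of its summed counts, scaled to library size, was 5.86, or 2.55 on the log2 scale (95% exact interval 1.43 to 3.86, counting error only). With no filter the test gave 2.52 (edgeR adjusted p = 0.00748), and Erbb3 passed in 15 of 15 alternatives. No call was taken at these counts, with every EV library at or under the floor. Of the other 2 receptor genes 0 passed in that series in edgeR or DESeq2 and 0 had an unadjusted p under 0.05 in edgeR, where 13.5% of all genes rose and 12.7% fell.

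**Figure D3:**
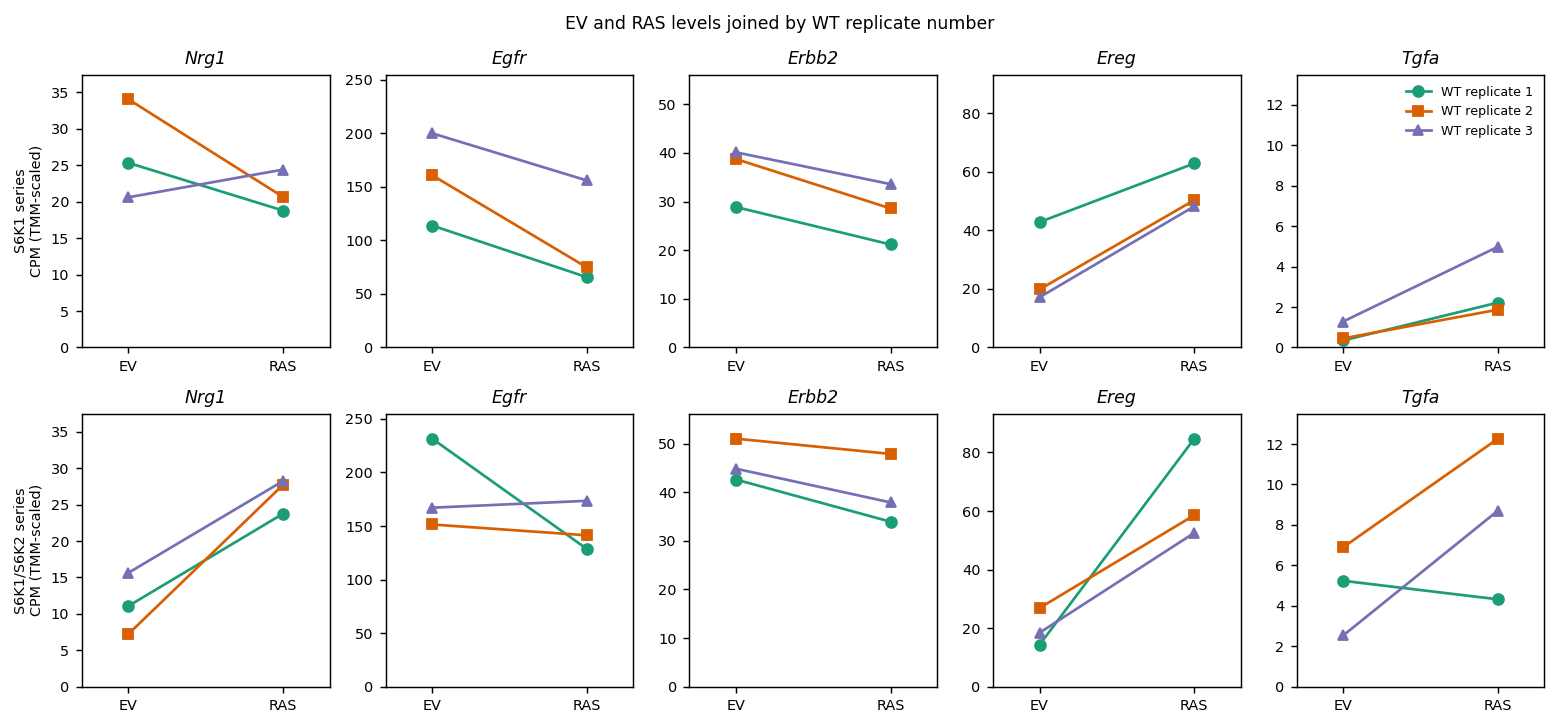
Level (CPM, linear axis from 0) of Nrg1, Egfr, Erbb2, Ereg and Tgfa with EV and with RAS, joined by WT replicate number, in the S6K1 series (top) and the S6K1/S6K2 series (bottom). Nrg1 lines cross in the S6K1 series, ending at 18.8 to 24.4 CPM with RAS, and all rise in the other, and Erbb2 lines fall slightly in all 6 cases.

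Levels between genes were compared per exon length, as RPKM (counts scaled to library size and to kilobases of exon). With EV, Egfr and Hbegf were the highest members, at means of 13.96 and 13.9 RPKM in the S6K1 series and 16.2 and 18.3 RPKM in the other, with overlapping ranges within each series, and Areg was near the bottom at 0.750 and 0.585 RPKM. With RAS the order was Hbegf (58.1 RPKM), Areg (41.5) and Ereg (13) in the S6K1 series, of which the first pair had ranges apart from each other and from Ereg. In the S6K1/S6K2 series Areg (93.2 RPKM) and Hbegf (86.1) led with overlapping ranges, ahead of Ereg (15.8). Egfr followed in both RAS groups, at 8.71 and 13.1 RPKM, with a range that overlapped that of Ereg. Below it came Nrg1 (6.61 and 8.26 RPKM) and Erbb2 (5.33 and 7.66 RPKM), which overlapped each other, then Btc (2.93 and 2.68) and Tgfa (0.804 and 2.24), while Erbb3 (0.119 and 0.236) and Epgn (0.0590 and 0.0627) were last.

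The summed ligand level was larger with RAS, and Areg made up far more of it. The summed level of the 7 ligand genes was 21.8 to 43.5 RPKM in WT EV and 112 to 139 RPKM in WT RAS libraries of the S6K1 series, and 22.8 to 41.6 RPKM and 187 to 228 RPKM in the S6K1/S6K2 series. Areg made up 1.40% to 3.47% of the sum with EV and 30.6% to 38.6% with RAS in the S6K1 series, and 1.40% to 2.88% with EV and 42% to 49.4% with RAS in the S6K1/S6K2 series. Nrg1 made up 18.1% to 40.7% with EV and 4.20% to 6.41% with RAS in the S6K1 series. Hbegf stayed a large part throughout, with the highest mean share in both EV groups (43.7% and 57.6%) and in the WT RAS group of the S6K1 series (46.9%), and ranged from 36.5% to 76.7% over all EV libraries and 36.9% to 51.7% over all WT RAS libraries.

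**Figure D4:**
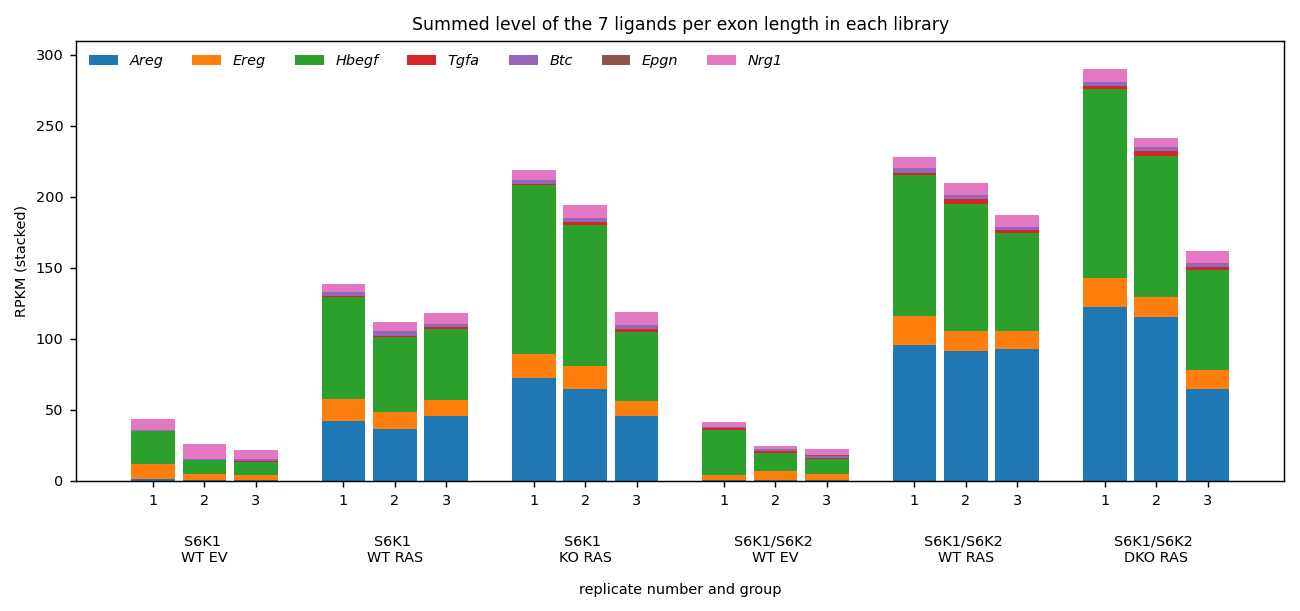
Level of the 7 ligand genes per exon length (RPKM, stacked) in each of the 18 libraries, ordered by group and replicate number. WT EV bars reach 21.8 to 43.5 RPKM and WT RAS bars 112 to 228 RPKM, and most of the RAS bars is Areg and Hbegf.

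To ask whether the ligand response needs S6K1, KO RAS libraries were compared with WT RAS libraries. None of the 8 members tested passed the test with loss of S6K1, where 0.00712% of all genes tested passed, in either direction. Rps6kb1 itself was lower by 1.17 on the log2 scale and did not pass (edgeR adjusted p = 0.234). The lack of calls in this fit is thus no result about the family. Rps6kb1 did pass with the replicate block (-1.18, edgeR adjusted p = 0.000101) and in DESeq2 (adjusted p = 8.04e-07). In edgeR without the block 0 of the 8 members had an unadjusted p under 0.05, and DESeq2 called 0. The replicate block called 0 members, where 4.15% of all genes passed. With it 5 members had an unadjusted p under 0.05, where 2497 of 14036 genes tested did. All 5 were higher in KO RAS libraries with the block, by 0.86 (SE 0.28) for Tgfa, 0.55 (SE 0.20) for Hbegf and 0.53 (SE 0.20) for Areg. Egfr and Erbb2 were higher by 0.46 (SE 0.17) and 0.42 (SE 0.13). The intervals below are from the fit without a block. Areg was at 87.0, 77.6 and 54.6 CPM in KO RAS replicates 1 to 3 against 51.0, 43.8 and 54.7 CPM in WT RAS, a log2 difference of 0.55 (95% interval -0.16 to 1.26, edgeR adjusted p = 0.921). Hbegf was at 281, 236 and 115 CPM in KO RAS against 170, 125 and 118 CPM in WT RAS, a difference of 0.61 (95% interval -0.30 to 1.53, edgeR adjusted p = 0.997). For both genes KO replicates 1 and 2 lay above all WT RAS libraries and KO replicate 3 did not.

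The other members gave the same kind of interval with loss of S6K1. The log2 difference was 0.19 for Ereg (95% interval -0.55 to 0.92), 0.78 for Tgfa (-0.29 to 1.85), -0.06 for Btc (-0.89 to 0.77), 0.35 for Nrg1 (-0.11 to 0.82), 0.37 for Egfr (-0.36 to 1.11) and 0.41 for Erbb2 (-0.07 to 0.89). These intervals leave room for changes of more than 1 log2 unit upward in Areg, Hbegf, Tgfa and Egfr. A fall of 1 log2 unit lay outside all 8 intervals. The summed ligand level was 119 to 219 RPKM in KO RAS libraries, overlapping that of WT RAS libraries. Macrophage markers moved with the same comparison, since all 12 were lower in KO RAS libraries at an unadjusted p under 0.05 (0 called in edgeR, 1 in DESeq2 and 12 with the replicate block), with a summed level of 251 to 890 CPM in KO RAS against 750.1 to 3755 CPM in WT RAS libraries. Their part in the values above was not tested.

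With loss of both kinases the same comparison was made against the WT RAS libraries of that series. In it Rps6kb1 and Rps6kb2 passed as lower (-1.11 and -3.18 on the log2 scale, edgeR adjusted p = 0.00908 and 7.44e-05). None of the 9 members tested passed, where 0.0216% of all genes passed, 0 had an unadjusted p under 0.05 in edgeR, DESeq2 called 0, and the replicate block called 0 with 1 at an unadjusted p under 0.05. Areg was at 147, 139 and 77.7 CPM in DKO RAS libraries against 115, 109.6 and 111 CPM in WT RAS libraries, a difference of 0.12 (95% interval -0.34 to 0.57). Hbegf was at 317, 235 and 167 CPM against 236, 213 and 164 CPM, a difference of 0.23 (-0.64 to 1.09). DKO replicate 3 was the lowest DKO library for both genes, and the groups overlapped. Differences for Ereg, Btc and Nrg1 were 0.01 (-0.58 to 0.59), 0.00 (-0.72 to 0.72) and 0.00 (-0.55 to 0.55), and that for Tgfa was 0.08 (-0.95 to 1.12).

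Among the receptor genes Egfr was at 129.8, 109 and 109.6 CPM in DKO RAS libraries, a difference of -0.35 (95% interval -0.75 to 0.05, edgeR adjusted p = 1.00) that kept the groups overlapping. Erbb2 differed by 0.26 (-0.09 to 0.61), and Erbb3, at 10, 11 and 5 counts, by -0.72 (-1.78 to 0.34). The summed level of the 12 macrophage markers was 71.4 to 247 CPM in DKO RAS and 178 to 1015 CPM in WT RAS libraries, with 0 genes called in edgeR and DESeq2 and 1 at an unadjusted p under 0.05 in edgeR. Replicate 3 of DKO and WT did not pair. With the replicate block 2 of the 12 markers (Lyz2 and Mpeg1) were lower and 11 of 12 had an unadjusted p under 0.05. Their part in these values was not tested. The effect of loss was also compared between the series, where 0 of 9 members and 0.0069% of all genes passed, 0 members had an unadjusted p under 0.05 in edgeR and DESeq2 called 0 members.

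KO RAS and DKO RAS libraries were also set against WT EV libraries, which shared those EV libraries with the comparisons of WT RAS above. In the S6K1 series 5 of 6 ligand genes (Areg, Ereg, Hbegf, Tgfa and Btc) were higher in KO RAS libraries, where 9.55% of all genes were higher and 8.56% lower, with 77.1-fold for Areg and 6.38-fold for Hbegf, and 3 members (Areg, Hbegf and Tgfa) passed without EV replicate 2. The Ereg call (2.29-fold, edgeR adjusted p = 0.0358) was lost in 6 of 17 alternatives, over an adjusted p from 0.000567 to 0.127, among them leaving out EV replicate 2 or 3, WT RAS replicate 2, or KO replicate 1 or 2. Without EV replicate 1 the log2 value of Areg was 7.28, and without EV replicate 3 those of Tgfa and Btc went from 2.94 and 1.87 to 3.68 and 2.52. In the S6K1/S6K2 series 5 of 6 ligand genes (Areg, Ereg, Hbegf, Btc and Nrg1) were higher and Egfr was lower in DKO RAS libraries, where 13.1% of all genes were higher and 12.6% lower. The values were 170-fold for Areg, 5.52-fold for Hbegf (2.47 on the log2 scale, 3.14 without EV replicate 1) and -0.66 on the log2 scale for Egfr (SE 0.18, edgeR adjusted p = 0.0253). The Egfr call was lost in 4 of 17 alternatives (adjusted p from 0.00723 to 0.0996), among them leaving out EV replicate 1 or DKO replicate 2 or 3. That of Btc (1.16 on the log2 scale, edgeR adjusted p = 0.0303) was lost in 6 of 17 (0.00733 to 0.0786), namely without EV replicate 1 or 2 or any 1 of the DKO libraries and with the replicate block over the 6 libraries compared (adjusted p = 0.0645). Erbb3, with 10, 11 and 5 counts in DKO RAS libraries, had a ratio of summed counts of 3.58 to EV, or 1.84 on the log2 scale (95% exact interval 0.66 to 3.19) and was not called. Macrophage markers were lower in these comparisons too. In KO RAS against EV libraries 4 of 12 passed as lower in edgeR, 10 had an unadjusted p under 0.05, and the summed level was 251 to 890 CPM against 706 to 3450 CPM. In DKO RAS against EV libraries 0 of 12 passed in edgeR and 2 in DESeq2, 9 had an unadjusted p under 0.05 in edgeR, and the summed level was 71.4 to 247 CPM against 166 to 1506 CPM. The 5 epithelial genes named above passed as higher in both comparisons, with the same limit on Krt8 and Epcam. The part of the macrophage or the epithelial list in the ligand values was not tested.

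Of the 5 family genes outside the list, Egf was tested in both series, Erbb4 in the S6K1/S6K2 series, and Nrg2, Nrg3 and Nrg4 in neither. Neither tested gene passed with RAS. Egf, the ligand that names the family, had 4 to 24 counts per library and differed with RAS by -0.75 (95% interval -1.78 to 0.28, edgeR adjusted p = 0.342) and -0.53 (-1.62 to 0.56, adjusted p = 0.447) in the S6K1 and S6K1/S6K2 series. Erbb4, a receptor of neuregulins, had 21, 12 and 25 counts with EV, 2, 5 and 10 counts with RAS and 3, 6 and 3 counts in DKO RAS libraries of the S6K1/S6K2 series. It reached the filter through the EV libraries alone, so these counts are given without a call. Nrg2, Nrg3 and Nrg4 had at most 7, 1 and 4 counts in any library.

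Of 10 genes for ligand release, 1 rose and 2 fell with RAS in the S6K1 series, where 7.15% of all genes rose and 6.09% fell, and 5 rose and 2 fell in the S6K1/S6K2 series, where 13.5% rose and 12.7% fell, with median log2 fold changes of -0.06 and 0.49. Adam12, a metalloprotease that cleaves heparin-binding EGF, fell by 1.496 on the log2 scale (edgeR adjusted p = 0.000879) and by 1.03 (adjusted p = 0.0255) in the S6K1 and S6K1/S6K2 series. Rhbdf1, an inactive rhomboid that carries ADAM17 to the surface, fell by 0.63 (adjusted p = 0.00632) and 0.96 (adjusted p = 0.00448). Frmd8 was the release gene that rose in the S6K1 series. Frmd8, Rhbdf2 and Adam9 were among the 5 that rose in the S6K1/S6K2 series. Adam19 and Furin rose past the threshold in the S6K1/S6K2 series, by 1.48 and 0.65, and stood at 0.32 and 0.41 in the other, and the difference between the series passed for 0 of the 10 release genes in edgeR and DESeq2, with 3 at an unadjusted p under 0.05 in edgeR. Adam17 itself, named after its values were seen because it is the main protease of these ligands, differed by -0.20 (95% interval -0.44 to 0.05) and -0.16 (-0.39 to 0.08).

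Genes for inhibitors of the receptor held the highest fold change of these 3 pathway lists, that of Errfi1. Of 13 tested of 14 listed, 3 rose and 0 fell in the S6K1 series (7.15% and 6.09% of all genes) and 5 rose and 1 fell in the S6K1/S6K2 series (13.5% and 12.7%), with medians of 0.02 and 0.56. Errfi1 encodes MIG6, which binds the kinase domain of the EGF receptor and blocks it. It was at 86.0, 34.9 and 73.2 CPM with EV and 553, 581 and 570.1 CPM with RAS in the S6K1 series, and at 60.8, 108 and 76.0 CPM with EV and 880.0, 743 and 515 CPM with RAS in the S6K1/S6K2 series. EV and RAS libraries did not overlap, and the log2 fold change was 3.13 in both series (SE 0.32 and 0.27, edgeR adjusted p = 0.000408 and 0.000127). Lrig1, a membrane protein that promotes receptor loss, rose by 1.38 and 1.54, and Cblb, a ubiquitin ligase of the receptor, by 0.92 and 1.14. Lrig3, a relative of Lrig1, fell by 1.41 in the S6K1/S6K2 series (adjusted p = 0.00157) and stood at -0.97 in the S6K1 series (adjusted p = 0.0507).

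Of 19 tested of 20 listed adaptor genes that carry the receptor's signal, 2 rose and 1 fell in the S6K1 series (7.15% and 6.09% of all genes) and 7 rose and 2 fell in the S6K1/S6K2 series (13.5% and 12.7%), with medians of 0.09 and 0.27. With the replicate block 5 rose and 4 fell in the S6K1 series, where 18.1% of all genes rose and 18.1% fell. Rasa1, a RAS GTPase-activating protein that binds activated receptors, rose by 0.74 and 0.91. Eps15, an endocytic substrate of the EGF receptor, rose by 0.69 in the S6K1/S6K2 series, and Gab1, a docking protein, fell by 0.77 there. In the S6K1 series they stood at 0.31 and -0.51 (edgeR adjusted p = 0.129 and 0.197) and passed in the same directions with the block (0.31 and -0.49, adjusted p = 0.0255 and 0.00437). Stat3, a transcription factor, fell by 0.71 and 0.42. With loss of S6K1 or of both kinases 0 genes of the release, inhibitor and adaptor lists passed the test in edgeR, where 0.00712% and 0.0216% of all genes passed. Of these lists 0 genes had an unadjusted p under 0.05 and DESeq2 called 0. With the replicate block 0 passed. With it and loss of S6K1, 3 release and 2 adaptor genes had an unadjusted p under 0.05, where 2497 of 14036 genes tested did.

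**Figure D5:**
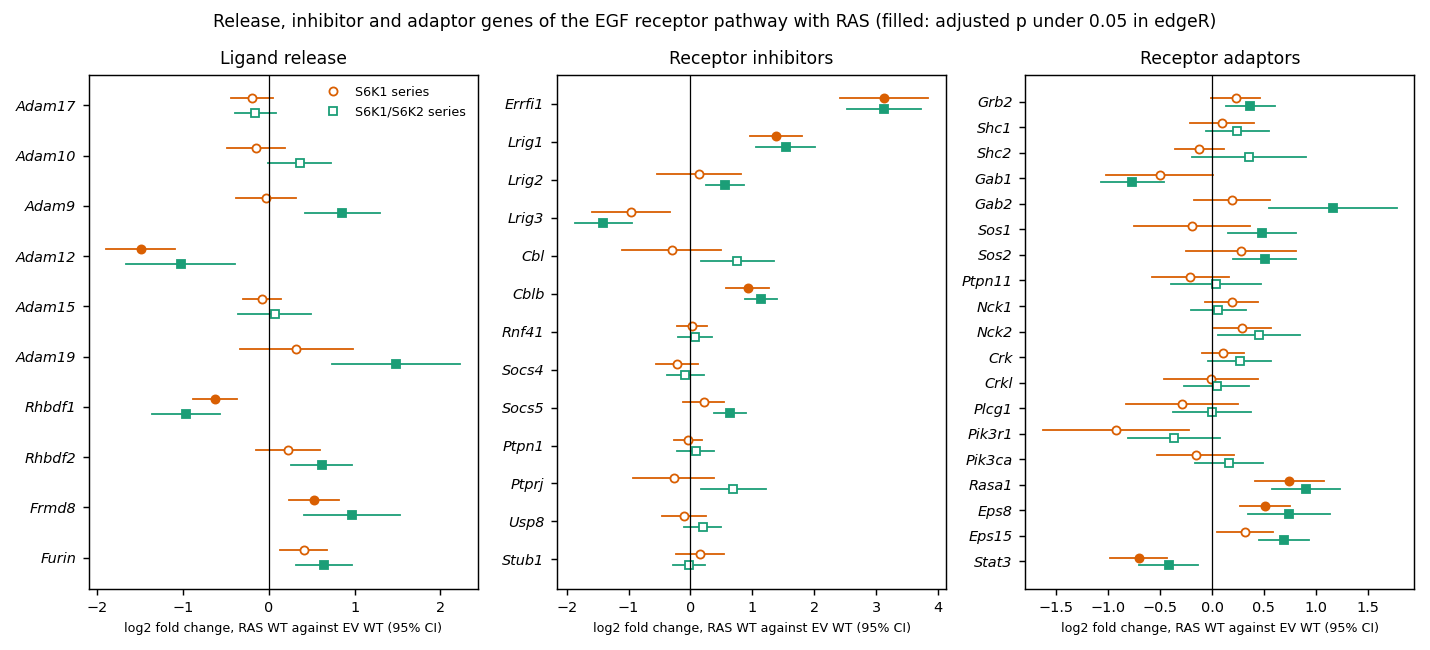
Log2 fold change with RAS in WT cells (unadjusted 95% confidence interval) of the tested genes for ligand release, receptor inhibitors and receptor adaptors, in the S6K1 series (orange circles) and the S6K1/S6K2 series (green squares), filled where the edgeR test passed. Errfi1 at 3.13 in both series stands farthest to the right, and Adam12 and Lrig3 are the lowest points.

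Across the 18 libraries, the genes whose log2 levels were most like those of each member were listed as a description. The libraries share the RAS treatment and the 2 series, and no test was made. Areg was followed by Hmga1 (Pearson's r = 0.986 over 18 libraries), Mapk6 (0.986) and Hmox1 (0.983). Ereg was followed by Fosl1 (0.974), Gars (0.957) and Il1rl1 (0.953). Hbegf was followed by 0610010O12Rik (0.971), Tgif1 (0.967) and 5730469M10Rik (0.966). Tgfa was followed by Ace (0.952), Slitrk6 (0.919) and Nptxr (0.915), and Btc by Il33 (0.949), Unc5d (0.911) and Nefm (0.910). Nrg1 was followed by Atp2a2 (0.930), Lass6 (0.911) and Cdk18 (0.909). The receptor gene Egfr was followed by Tmtc2 (0.886), Foxj2 (0.882) and Dip2b (0.858), and Erbb2 by Zfp846 (0.908), Prkca (0.897) and Wdtc1 (0.896). No likeness was computed for Epgn and Erbb3, whose counts were too low. The members themselves were left out of the genes compared.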

How the data were processed

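RNA-seq was measured in 18 libraries of MEFs, 3 per group, with groups and replicate numbers taken from the sample titles. The authors deposited raw counts per Ensembl gene identifier for all libraries in one table. The submitters' processing notes name STAR 2.7.1a, DESeq2 1.28.1 and mm10, whereas the study's methods name other alignment software and an earlier build for RNA-seq, so which made the counts is unsettled. Symbols came from the given name tables (32589 identifiers, 99.1% of counts). Exon lengths for RPKM came from GENCODE M1, which is older than the identifiers, so a length may differ from the one counted.

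Each series of 9 libraries was fitted alone with edgeR 4.0.16 (filterByExpr with a minimum count of 10, TMM, quasi-likelihood test, two-sided, Benjamini-Hochberg, threshold 0.05), and differences between series over 18 libraries. R 4.3.3, limma 3.58.1 and DESeq2 1.42.0 were used. Confidence intervals are 95% and unadjusted. Alternatives were DESeq2, other scaling, no filter, fewer or more libraries, a replicate block and leaving out each library. The block over the 12 WT libraries was added after seeing the data. The fits were tested on simulated data. Deviations of same-numbered libraries correlated at 0.422 to 0.655 (WT EV and WT RAS) and 0.373 to 0.672 (KO and WT) in the S6K1 series. WT EV and WT RAS of the S6K1/S6K2 series correlated at 0.301 to 0.381, and all these numbers were taken as pairs. Those of DKO and WT correlated at 0.287, 0.424 and -0.0287 for replicates 1, 2 and 3, so replicate 3 did not pair. The values of replicates 1 and 2 do not establish pairs, since DKO and WT embryos came from different mothers. Correlations between libraries of different numbers were not computed. The labels do not tie a library to an embryo, so p-values measure the spread between these libraries, which may be partly technical.

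All 10 members are named. Up to 4 genes of each pathway list are named, those with the lowest adjusted p among called genes in either RAS comparison, and the 3 genes with the highest Pearson's r to each member over log2 CPM (mean of at least 100 counts, 9700 genes). Frmd8, Rhbdf2 and Adam9 are named besides, so that all release genes called with RAS appear. The members and lists were chosen with earlier results of these data known.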

Additional observations from a re-analysis of the deposited data

Results flagged for a closer look

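The RAS response of Nrg1, the neuregulin gene, differed between the series in the fit over 18 libraries with a replicate block, by 1.58 on the log2 scale (edgeR adjusted p = 0.0493). Nrg1 stood at 25.3, 34.1 and 20.6 CPM with EV and 18.8, 20.6 and 24.4 CPM with RAS in the S6K1 series, and at 11.1, 7.25 and 15.6 CPM with EV and 23.8, 27.7 and 28.3 CPM with RAS in the S6K1/S6K2 series. It was higher with RAS in 3 of 3 WT numbers of the S6K1/S6K2 series and in 1 of 3 of the S6K1 series. The adjusted p was 0.121 without a block and 0.108 with the block over the 12 WT libraries, and ran from 0.00588 to 0.365 over 24 alternatives. Batch and series cannot be told apart.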

How the results depend on the processing

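With a replicate block, which pairs libraries of one number, the members called with RAS in the S6K1 series went from 4 to 7, over 9 as over 6 libraries. Leaving out 1 library at a time gave 1 to 4 in that comparison (1 without EV replicate 2), 3 to 5 for KO RAS against EV, main count 5 (3 without EV replicate 2), and 4 to 7 for DKO RAS against EV, main count 7 (4 without EV replicate 1 or DKO replicate 2), which counts Erbb3 although its filter entry rests on RAS libraries. For the difference of the RAS response, main count 0, DESeq2, no filter, the block over 18 libraries and leaving out S6K1/S6K2 WT EV replicate 3 each gave 1, Nrg1 (1.86 on the log2 scale and adjusted p = 0.0117 in the last). No member's called value changed sign under the alternatives run. Over the single members and comparisons, 1229 values kept their side of the threshold, 16 came to pass it and 41 no longer passed it, and the cause was not tested. In the DKO and WT comparison, where replicate 3 did not pair, the block called 0 members. Depth limits Erbb3, Epgn, the EV values of Areg (4 to 26 counts) and those of Tgfa in the S6K1 series (5 to 14 counts).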
